A study of Homo sapiens with 4 samples.

Results

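Small nucleolar RNAs (snoRNAs) and small Cajal body RNAs (scaRNAs) were followed in the established human cell line MDA-MB231 (usually written MDA-MB-231), from a breast carcinoma, grown in treated or control medium. They were the transcript clusters of the authors' sheet with a single gene symbol starting SNORD, SNORA or SCARNA and a digit. The rule gave 309 of the 53617 gene-level probe sets, under 277 symbols: 210 box C/D snoRNA clusters (SNORD), 79 box H/ACA clusters (SNORA) and 20 Cajal body clusters (SCARNA). Both groups were the same line, plated in triplicate wells and kept for 24 hours in DMEM with serum, with no genetic change named in the labels. Both then spent 3 days in medium made from 1 part of concentrated DMEM and 9 parts of hypotonic saline. Saline for the treated group was held beforehand for 30 minutes in a field labelled dc DEP EMF, made by a unit named BEFE (Bio-Electric Field Enhancement), and control saline was not. There were 4 samples in 4 groups of 1, with each medium summarised once per gene and once per exon. The labels mention 5 biological replicates of each group, for the RNA quality check alone, and do not say whether a column is 1 array, pooled RNA or a mean.

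Box C/D snoRNAs guide the methylation of ribose in ribosomal RNA through short stretches that pair with it, and the enzyme in their particle is fibrillarin. Box H/ACA snoRNAs guide the conversion of uridine to pseudouridine, with dyskerin as the enzyme. ScaRNAs carry the same boxes and guide both kinds of modification in the small nuclear RNAs of the spliceosome, in Cajal bodies. Most human members are not transcribed from promoters of their own. They are cut from introns of a host gene after splicing, and many hosts are genes for ribosomal proteins or nucleolar factors, or spliced RNAs with no protein product. A dividing carcinoma cell makes ribosomes at a high rate, and these RNAs are needed for that.

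The promoter of the host gene therefore stands in front of most members. The host was taken as the single protein-coding gene, long non-coding RNA gene or transcribed pseudogene whose RefSeq span (GRCh38.p14) holds the member. Read-through genes, whose names join a spanning gene to another gene (as PPAN-P2RY11 does for PPAN), were set aside first. The table gives no strand for the snoRNAs, so strand was not checked. Such a gene was found for 283 members, in 125 hosts. With read-through genes set aside, 12 members still lay in the spans of several genes and 14 in none. The starts of 6 hosts with several members above the signal floor are shown because their members are compared below. In RPL4 and GAS5 all such members were lower in treated medium, in PPAN and TAF1D all were higher, and in NCL and ZFAS1 they went both ways. Each line holds 60 bases before and 20 bases after the annotated start, on the host's strand, from RefSeq. Capitals mark CTTT, the core of the pyrimidine-rich start known from ribosomal protein genes, where it lies within 20 bases of the start.
RPL4, chr15:66504836-66504915, minus strand: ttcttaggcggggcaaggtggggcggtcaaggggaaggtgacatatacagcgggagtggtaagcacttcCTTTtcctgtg
GAS5, chr1:173869026-173869105, minus strand: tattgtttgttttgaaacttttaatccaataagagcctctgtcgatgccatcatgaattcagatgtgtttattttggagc
PPAN, chr19:10106163-10106242, plus strand: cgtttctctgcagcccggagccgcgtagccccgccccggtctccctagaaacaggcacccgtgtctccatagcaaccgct
TAF1D, chr11:93741476-93741555, minus strand: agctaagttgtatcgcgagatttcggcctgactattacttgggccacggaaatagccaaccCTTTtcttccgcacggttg
NCL, chr2:231464465-231464544, minus strand: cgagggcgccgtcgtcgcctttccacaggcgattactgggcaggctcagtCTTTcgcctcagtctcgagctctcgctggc
ZFAS1, chr20:49278582-49278661, plus strand: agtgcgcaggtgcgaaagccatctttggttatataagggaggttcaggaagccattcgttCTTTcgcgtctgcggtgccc

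CTTT lay within 20 bases of the annotated start, on the transcribed strand, in 31 of the 101 hosts found in the RefSeq promoter table (30.7%). Among the 8 ribosomal protein hosts in that table it was present in 7, and among the 93 other hosts in 24. Of all 35116 promoters, 16.3% held it in the same 41-base window on that strand. On the other strand the shares were 5.94% of hosts and 12.9% of all promoters. No other motif was searched. The letters are a description of these windows and identify no binding site. Of the hosts shown, GAS5 and PPAN lacked CTTT in the window around the annotated start, and other starts of these genes are not shown. Whether CTTT goes with the sign of the members was not tested.

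Signals were log2 values on the authors' scale, 1 per medium, and each difference is treated minus control. No difference has a replicate check, an error or a p-value. The median over all gene-level probe sets was 6.33 for control and 6.31 for treated medium. The line's markers were checked first. VIM, CD44, CAV1, AXL, MSN and ITGB1, which MDA-MB-231 is known to express, were above a floor of 7.17, the median of the mean signal over transcript clusters with 1 symbol. ESR1, PGR and CDH1 were under that floor in both media. ERBB2 (9.05 in control, 8.41 in treated), EPCAM (7.70 and 7.26) and GATA3 (8.04 and 7.85) were above it, although this line is known to lack them or hold them low. The 5 measured markers of leukocytes, endothelium and fibroblasts lay between 3.81 and 6.07.

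How the array measures these RNAs bears on each value. For 304 of the 309 clusters the exon-level table held a probe set with the next ID number, and in 300 of those its values were the same to within 0.0001. Each of those clusters thus rests on 1 probe set, whose number of probes is not stated. Of the symbols, 18 had several clusters (50 in all), and in 12 of the 18 all clusters had 1 shared pair of values. SNORD32B alone had 7 clusters, whose differences all rounded to 0.76, and SNORA38 had 5. The 309 clusters held 282 distinct pairs of values, so cluster counts are given beside counts with 1 cluster per symbol. Probes inside a snoRNA also match the unspliced host transcript, and mature RNA, precursor and host intron cannot be told apart here. The RNA was purified on columns of a kind known to retain short RNA poorly, and what share of each mature RNA was kept was not measured.

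Above the floor were 125 of the 309 clusters, under 111 symbols. The box H/ACA class passed most often, with 52 of 79 clusters (65.8%), followed by the Cajal body class with 10 of 20 and the box C/D class with 63 of 210. The low box C/D share came with the imprinted repeat arrays. The SNORD113 and SNORD114 copies and the SNORD115 and SNORD116 copies are tandem arrays best known from brain. Their 111 clusters (40 and 71) had signals between 2.42 and 6.41, and 0 reached the floor. Without them, 63 of 99 box C/D clusters were above it.

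**Figure D1:**
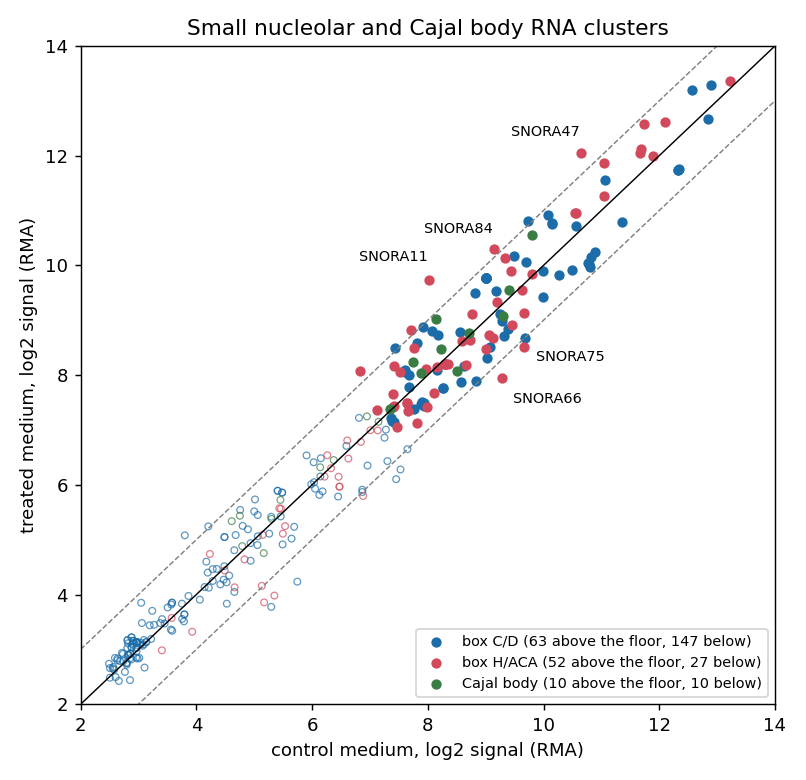
Log2 signal in control medium (x) and treated medium (y) of the 309 clusters. Filled points are the 125 above the floor of 7.17 in mean signal and open points the 184 below it; the solid line is equality and the dashed lines are 2-fold. Points lie on both sides of equality at every signal, and SNORA11, SNORA47 and SNORA84 lie above the upper dashed line while SNORA66 and SNORA75 lie below the lower one.

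Past 2-fold were 7 of the 125 clusters towards the treated side and 3 towards the control side. Over all 12969 transcript clusters with 1 symbol above the floor, the shares were 3.15% and 3.43%, or 6.58% in either direction. The 10 members past 2-fold each had a symbol of their own. At 1.5-fold the members' counts were 29 higher and 16 lower, where 9.45% and 9.55% of all clusters were. They were 23 higher and 15 lower of 111 with 1 cluster per symbol. The shares of all symbols past 1.5-fold, counted the same way, were 9.46% higher and 9.74% lower. The median difference of the members was 0.02, against -0.00 over all clusters. Their quartiles were -0.44 and 0.51, against -0.26 and 0.25.

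Other clusters that rest on 1 exon-level probe set gave narrower quartiles. Of 607 such clusters that were not members and passed the floor, 8.24% were at least 1.5-fold higher and 5.11% at least 1.5-fold lower, with quartiles of -0.17 and 0.19. For 189 microRNA gene clusters above the floor the quartiles were -0.19 and 0.12, and 2 were at least 2-fold higher and 2 lower. MicroRNA genes were not left out of the 607 clusters, and the lowest difference was -1.76 in both sets. The sets are therefore not separate comparisons. Other small RNA genes, of the spliceosome, Y, vault and 5S families, had 16 clusters above the floor with an SD of 0.701, against 0.596 for the members. Of these 16, 3 were at least 1.5-fold higher and 2 lower. By SD the members thus spread less than these few clusters, whose quartiles of -0.16 and 0.36 were narrower. These differences in spread were not tested. The 607 clusters and the 1.5-fold comparison with them were chosen with the values known.

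**Figure D2:**
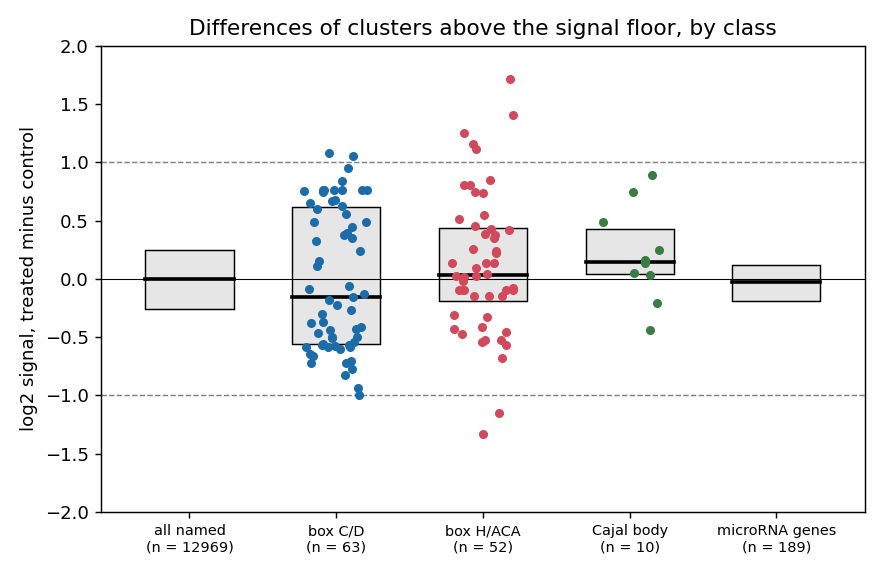
Difference in log2 signal, treated minus control, for clusters above the floor. Points are single members, boxes span the quartiles, thick lines are medians and dashed lines are 2-fold; all 12969 named clusters and 189 microRNA clusters are shown as boxes only. The box C/D quartiles (-0.56 and 0.61) and box H/ACA quartiles (-0.19 and 0.44) both lie on either side of 0, and 8 of the 10 Cajal body points lie above 0.

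Counts past 2-fold were small in each class. Of 63 box C/D clusters 2 were at least 2-fold higher and 1 lower (3.17% and 1.59%). Of 52 box H/ACA clusters 5 were higher and 2 lower (9.62% and 3.85%), and of 10 Cajal body clusters 0 passed in either direction. Shares of all clusters with 1 symbol above the floor were 3.15% and 3.43%. The classes' shares were not tested against each other. Medians were -0.16 for box C/D, 0.03 for box H/ACA and 0.15 for the Cajal body class. With no floor the first 2 changed sign and order, to 0.06 for box C/D and -0.06 for box H/ACA. Without the imprinted arrays as well, the box C/D median was -0.15, so its sign turned with those arrays. With the floor and 1 cluster per symbol the medians were -0.23 (55 symbols), 0.14 (46 symbols) and 0.15. In the box C/D class 22 of 55 symbols were above 0, and in the box H/ACA class 29 of 46, where 49.2% of all symbols were. At 1.5-fold, 11 box C/D symbols were higher and 12 lower, and 10 box H/ACA symbols were higher and 3 lower. Above the floor, box C/D values thus spread to both sides, while box H/ACA values past 1.5-fold were mostly on the higher side. Under the floor it was the reverse for box H/ACA. SNORA2A (-1.37), SNORA11C (-1.32), SNORA31 (-1.09), SNORA2B (-0.97) and SNORA70F (-0.61) were past 1.5-fold lower, and no box H/ACA member there was past 1.5-fold higher. RNA length varied from 122 to 236 bases in the box H/ACA class, and over the 111 symbols length and difference had a Pearson r of 0.09. Those points share hosts and the same pair of columns.

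The highest differences were box H/ACA RNAs. SNORA11 measured 8.02 in control medium and 9.73 in treated, 3.29-fold higher. Its host MAGED2, a gene of the melanoma antigen family, measured 9.42 and 9.96. SNORA11 has near-identical copies elsewhere, so its signal is uncertain: SNORA11B had a difference of -0.01 and SNORA11C of -1.32, both under the floor in mean signal. SNORA47 measured 10.64 and 12.05, 2.66-fold higher, and its host ZBED3 had a difference of 0.99. For these RNAs member and host were both higher.

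The other 3 box H/ACA RNAs past 2-fold upwards differed in how their hosts stood. SNORA12 measured 6.83 in control medium and 8.08 in treated. Control was below the floor here, and the treated value exceeded that floor 1.88-fold. SNORA84 measured 9.14 and 10.30, 2.24-fold higher, and lies in IARS1 (IARS in the file), the cytosolic isoleucyl-tRNA synthetase gene, whose difference was 0.52. SNORA80 measured 7.72 and 8.83, 2.16-fold higher, and lies in URB1, a gene for ribosome assembly. URB1 (-0.02) and CWF19L1 (0.01), the host of SNORA12, had differences near 0.

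The 2 box C/D RNAs at least 2-fold higher passed narrowly. SNORD71, which guides methylation of the short rRNA of the large subunit, measured 9.73 in control medium and 10.80 in treated, 2.11-fold higher. SNORD63 measured 7.43 and 8.49, 2.08-fold higher. Their hosts AP1G1, an adaptor gene of clathrin coats, and HSPA9, the mitochondrial Hsp70 gene, had differences of -0.08 and 0.20. SNORD60, at 7.92 and 8.88 (0.95), lay just under 2-fold. Neither host was near 2-fold.

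At least 2-fold lower were 2 box H/ACA RNAs and 1 box C/D RNA. SNORA66 measured 9.28 in control medium and 7.95 in treated, 2.52-fold lower. It lies in the spans of RPL5, a ribosomal protein gene, and of DIPK1A, so no single host was assigned. SNORA75 measured 9.66 and 8.51, 2.22-fold lower, and lies in NCL, which encodes nucleolin. SNORD69 measured 9.68 and 8.68, just past 2-fold, and lies in GNL3, the nucleostemin gene. Its difference was -0.98 after median centring and -0.96 after quantile normalization, less than 2-fold. NCL and GNL3 had differences of -0.51 and -0.59.

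Of the 184 members under the floor, 2 were at least 2-fold higher and 8 at least 2-fold lower. Of all 12968 clusters with 1 symbol under the floor, 0.841% and 0.601% were. With no floor the members' counts were 9 and 11 of 309, and the shares of all 25937 clusters 1.99% and 2.02%. The members under the floor were named after their values were seen, and the 2 higher ones were SNORD11B and SNORD114-16. The 8 lower ones were SNORD20, SNORD114-4, SNORA2A, SNORD1A, SNORA11C, SNORD59B, SNORA31 and SNORD101. SNORD1A (7.45 in control, 6.10 in treated) and SNORD59B (7.53 and 6.28) were above the floor in control medium only. SNORD59A, in the same host as SNORD59B, the ATP synthase gene ATP5F1B (ATP5B in the file), measured 8.84 and 7.90. The host itself measured 13.79 and 13.63, a difference of -0.16.

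Members listed for the processing of the ribosomal RNA precursor were on the lower side in all 5 measured clusters. U3, encoded by the SNORD3 copies, is needed for the first cuts of the precursor. SNORD3A measured 12.34 in control medium and 11.75 in treated (-0.59). SNORD3B-1, with 2 clusters of equal value, measured 12.32 and 11.73, and SNORD3C 10.90 and 10.25. U3 copies are near-identical, so these values count as 1 measurement and not as 3. U13 (SNORD13) measured 12.85 and 12.66, a difference of -0.18. U8, U14, U22 and the SNORA62, SNORA63 and SNORA73 RNAs, also listed, had no cluster with a single symbol and were not analysed here.

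The Cajal body RNAs had small differences. SCARNA6 was highest, at 8.14 in control medium and 9.03 in treated (0.89). SCARNA17, which acts on U4 and U12 RNA, measured 9.80 and 10.55 (0.75). SCARNA10, the U85 RNA that guides both kinds of modification in U5, measured 7.74 and 8.23 (0.49). These RNAs were the highest of the class and none reached 2-fold.

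The other Cajal body RNAs above the floor lay between -0.44 and 0.25. SCARNA9L was lowest, at 8.51 in control and 8.07 in treated medium. SCARNA2, which acts on U2 RNA, had a difference of -0.21, and SCARNA9, another U2 guide, of 0.03. SCARNA22 (0.05), SCARNA7 (0.14), a U1 guide, SCARNA27 (0.16) and SCARNA4 (0.25) were nearer to 0 or slightly above it. Past 1.5-fold were thus 2 of these 10 members on the higher side and 0 on the lower. The 10 members under the floor had differences from -0.41 (SCARNA18) to 0.73 (SCARNA15). SCARNA20, at 7.15 in both media, had the same value in each.

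Grouped by host, members above the floor in ribosomal protein genes were mostly lower and members in other protein-coding genes mostly higher. With 1 cluster per symbol above the floor, 14 of 20 members in ribosomal protein genes were below 0, with a median of -0.29. Of 57 members in other protein-coding genes, 41 were above 0, with a median of 0.26, and 18 were at least 1.5-fold higher and 3 lower. Of 19 members in non-coding genes or pseudogenes, 12 were below 0, with a median of -0.43. Of all symbols above the floor, 49.2% were above 0, 9.46% were at least 1.5-fold higher and 9.74% lower. With no floor and without the imprinted arrays, 61 of 110 members in other protein-coding genes were above 0, with a median of 0.096, and 22 were at least 1.5-fold higher and 15 lower. The matching shares of all symbols with no floor were 47.3% above 0, 6.33% higher and 6.26% lower. The share above 0 was thus smaller once members under the floor were included. In ribosomal protein genes 18 of 24 were then below 0, with the same median. All 7 members above the floor and at least 2-fold higher lie in other protein-coding genes, as do 2 of the 3 at least 2-fold lower. SNORA66, also lower, had no single host. These are 12.3% and 3.51% of the 57 members, against 3.22% and 3.46% of all symbols above the floor. Of the 96 members above the floor with a single host, 57 lie in such genes. The grouping was made with the values known, and members share hosts.

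Above the floor, the medians of both snoRNA classes had these signs in the first 2 kinds of host. In ribosomal protein hosts, box C/D members had a median of -0.30 (13 members) and box H/ACA members of -0.09 (7 members). In other protein-coding hosts the medians were 0.33 (27 members) and 0.39 (22 members). There 15 box C/D members were above 0 and 12 below, while 19 of the 22 box H/ACA members were above 0. The majority above 0 in these hosts thus came mainly from the box H/ACA class. In non-coding hosts box C/D members had a median of -0.57, with 8 of 10 below 0, and box H/ACA members of 0.01, with 4 of 8 above 0. With members of 1 host averaged first, 9 of 13 ribosomal protein hosts were below 0 (median -0.14), 36 of 50 other protein-coding hosts above 0 (0.25) and 8 of 12 non-coding hosts below 0 (-0.11). When the floor was raised to the 75th percentile, the median over ribosomal protein hosts was 0.10, over 8 hosts, so its sign depends on the floor.

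**Figure D3:**
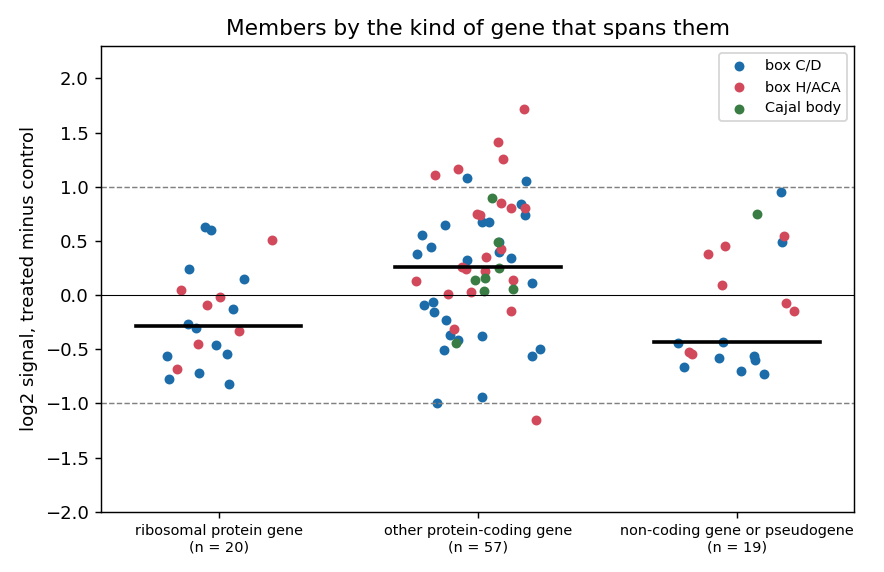
Difference in log2 signal, treated minus control, of members above the floor (1 cluster per symbol), by the kind of gene that spans them. Points are members coloured by class, thick lines are medians (-0.29, 0.26 and -0.43 from left to right) and dashed lines are 2-fold. Points above 0 are the majority only in the middle group.

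The hosts' own transcripts were measured for only part of these members, and their median differences were small in each kind of host. Over members whose host had a cluster with 1 symbol above the floor, the median host difference was 0.02 for 10 members in ribosomal protein genes, -0.02 for 51 in other protein-coding genes and -0.02 for 13 in non-coding genes. The median of member minus host was -0.20, 0.23 and -0.08. The member medians given earlier cover 20, 57 and 19 members, so they and the host medians are not over the same members. Several host genes, RPL4 and RPL23A among them, have no cluster with a single symbol, so their transcripts were not set beside their members.

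Across 74 members in 62 hosts, 42 members had the sign of their host. The Pearson r of member and host differences was 0.27 and Spearman's rho 0.24, as a description of points that share hosts and the same pair of columns. By class, r was 0.53 for 34 box H/ACA members, 0.06 for 33 box C/D members and 0.15 for 7 Cajal body members. No test of these correlations against each other was made. Differences had an SD of 0.605 among the members and 0.407 among the hosts. Of the hosts 0 were at least 2-fold higher and 1, NCAPD2, at least 2-fold lower.

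**Figure D4:**
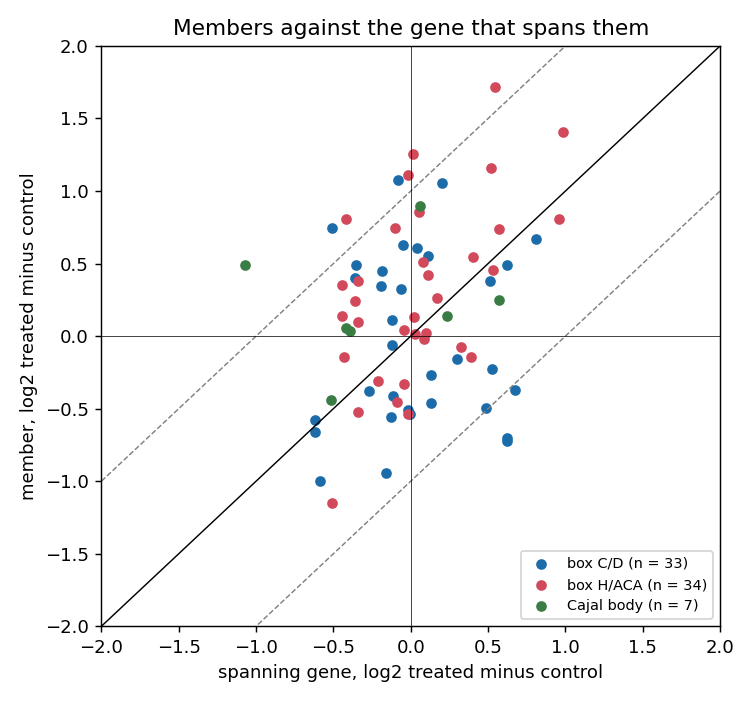
Difference in log2 signal of 74 members (y) against that of the gene that spans them (x), coloured by class. The solid line is equality and the dashed lines mark a member 2-fold from its host; 7 members lie above the upper dashed line and 3 below the lower one.

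At least 2-fold apart from their hosts were 10 of the 74 members, 7 higher and 3 lower. Member minus host had an SD of 0.634, against 0.605 for the members' own differences, so subtracting the host did not narrow the spread. SCARNA10 stood furthest above, with a difference of 0.49 where NCAPD2, a condensin subunit gene, had -1.07. SNORD82 (0.74) stood above NCL (-0.51), and SNORA38B (0.81) above NOL11 (-0.42), a gene of ribosomal RNA transcription and processing. SNORA12, SNORA11, SNORD71 and SNORA80 were the other 4. The 3 lower ones were SNORD12B and SNORD12C in ZFAS1 and SNORD23 (-0.37) in NOP53 (GLTSCR2 in the file, 0.67). In each of these pairs the member and the transcript around it had unequal differences.

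Members cut from 1 host can be set side by side. Of 16 hosts with several members above the floor (37 members), 4 had all members above 0, 5 all below 0 and 7 both signs. The median range within a host was 0.34. Members of different hosts were not paired for comparison, so whether members of 1 host lie closer was not tested.

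GAS5, a growth-arrest RNA whose introns hold many box C/D snoRNAs, and its members had close values. The host measured 11.48 in control medium and 10.87 in treated (-0.62). SNORD78 measured 10.81 and 10.15 (-0.66) and SNORD75 10.50 and 9.92 (-0.58). The other GAS5 snoRNAs listed had no cluster with a single symbol. In RPL4 all 4 box C/D members were lower: SNORD16 (10.79 and 10.02), SNORD18B (9.03 and 8.31), SNORD18C (11.36 and 10.79) and SNORD18A (9.28 and 8.98). By their symbols the SNORD18 members are copies, and whether their probes measure them separately was not checked. The 3 SNORD88 copies in C19orf48P, which are similar in sequence, had differences of -0.60, -0.56 and -0.44.

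Hosts with all members higher were fewer. SNORD105 (10.07 in control, 10.91 in treated) and SNORD105B (12.56 and 13.21) lie in PPAN, a gene of large-subunit assembly, whose own transcript had no single-symbol cluster. SNORA8 (10.54 and 10.96) and SNORD6 (8.17 and 8.73) lie in TAF1D, a gene of the RNA polymerase I machinery with a difference of 0.11. SNORA42 (0.74) and SCARNA4 (0.25) lie in KHDC4 (KIAA0907 in the file), which had a difference of 0.57. SNORA5A (0.35) and SNORA5C (0.14) were above 0 where their host TBRG4 had -0.44.

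In NCL and ZFAS1 members of 1 host went in opposite directions. In NCL, SNORA75 was lower, as above, while SNORD82 measured 8.07 in control medium and 8.81 in treated. SNORD20, in the same gene, measured 5.29 and 3.78, under the floor. The range within NCL was 1.89, the widest of the 16 hosts. In ZFAS1, a non-coding RNA gene, SNORD12 measured 11.07 and 11.56, SNORD12B 8.57 and 7.87, and SNORD12C 10.77 and 10.05. The host was higher, at 11.56 and 12.18, so SNORD12 went with it and the other 2 did not.

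SNHG17, RPS12 and EIF4A1 also held both signs. In SNHG17 (-0.34), SNORA71B had a difference of -0.53, SNORA71C of 0.10 and SNORA71A of 0.38, and these copies are similar in sequence. In RPS12, SNORA33 measured 7.81 in control medium and 7.13 in treated and SNORD100 10.57 and 10.72. In EIF4A1, SNORD10 (-0.09) and SNORA48 (0.22) lay close to 0. CHD8 and RPS2 held 2 members each, all within 0.33 of 0, and NCL and ZFAS1 made up the 7.

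**Figure D5:**
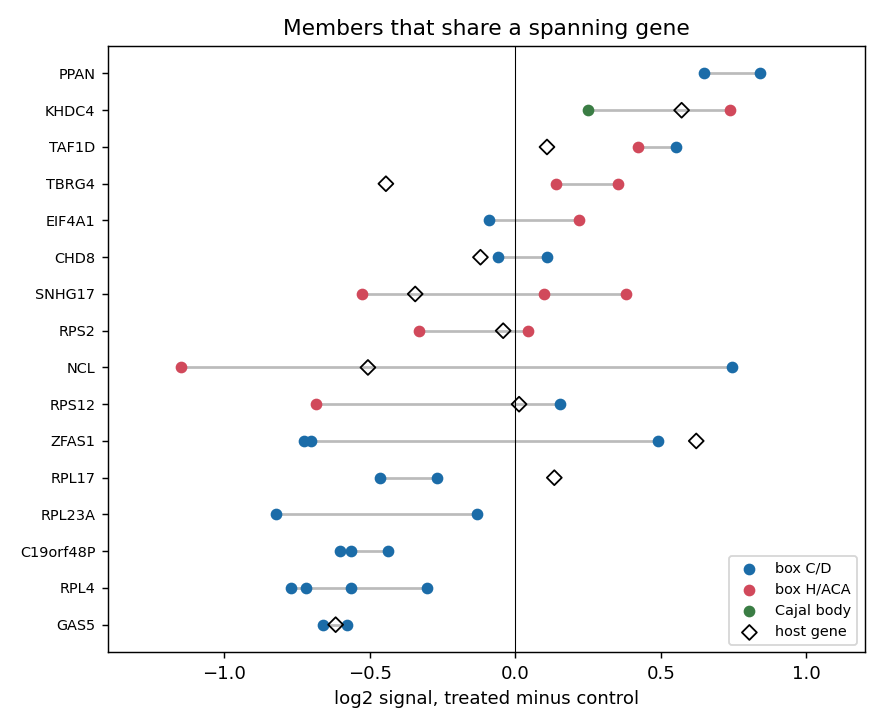
Difference in log2 signal, treated minus control, for the 16 hosts with several members above the floor, ordered by the mean of their members. Filled points are members coloured by class, grey lines span them and open diamonds are the host's own transcript where a single-symbol cluster exists. Members of GAS5, RPL4 and C19orf48P lie together below 0, members of PPAN and TAF1D together above 0, and members of NCL span 1.89.

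The proteins that build and carry these RNAs were mostly a little lower. Of 25 listed genes, all above the floor, 20 were below 0, with a median of -0.16. Of these genes 1 was at least 2-fold lower and 0 were at least 2-fold higher. Among all 12353 symbols above the floor, 6253 were below 0, 3.46% were at least 2-fold lower and 3.22% higher. NOP56, a core box C/D protein gene, measured 11.10 in control medium and 9.80 in treated, 2.47-fold lower. FBL, the fibrillarin gene, measured 12.63 and 12.10 (-0.53), while its partners NOP58 (-0.02) and NHP2L1 (0.27; current symbol SNU13) were near or above 0. The box H/ACA core genes DKC1 (-0.12), NHP2 (-0.26), NOP10 (-0.17) and GAR1 (0.10) had small differences. WRAP53, whose protein brings scaRNAs and telomerase RNA to Cajal bodies, measured 9.08 and 8.28 (-0.80).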

How the data were processed

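Both deposited tables hold log2 signal. Per the submitters' processing notes the authors used RMA and Affymetrix Expression Console, with versions and genome build not given in the sources used here. This method gives arrays 1 common distribution, which hides any shift of most genes together. The authors' deposited sheet gives symbols, accessions and a control over treated ratio, which matched the difference of the deposited log2 values to within 9.85e-05. Its 2 columns of intensities were not used.

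Members (309) were matched to RefSeq (GRCh38.p14) by accession (299) or symbol (10). The same-strand rule planned for hosts could not be applied, since the table lists no strand for snoRNAs. Where a symbol had several clusters, the one with the highest mean signal was kept for counts per symbol and for hosts. The floor was the 50th percentile of mean signal over 25937 clusters with 1 symbol. With 1 column per medium, no test was made. Counts of 2-fold were checked on simulated data with Python 3.11.15, pandas 2.3.3 and numpy 2.4.6. Rows with several names (15 held a snoRNA name) were left out. Genes named were the members past 2-fold, the Cajal body RNAs, fixed snoRNA groups, their hosts and 25 snoRNP genes. Other members were named after their values were seen. Members, lists and groupings were chosen with earlier results of these data known. snoRNA sequences were not used here.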

Additional observations from a re-analysis of the deposited data

How the results depend on the processing

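Alternatives changed the floor, the scaling, the choice of cluster per symbol, the fold and the imprinted arrays; those for host groups, and those without both floor and imprinted arrays, were chosen after seeing the data. Across summary results and alternatives, 102 recomputed values stayed close, 14 moved and 3 changed sign. The values that stayed close include some that could not differ. Leaving out the imprinted arrays with the floor kept, or adding rows with several names of 1 class, left the same 125 members above the floor. Box H/ACA members past 2-fold, 7 as reported and 10 with no floor, were also counted as close. With no floor the box C/D median was 0.064 and the box H/ACA median -0.061; without the imprinted arrays too, the box H/ACA median was also -0.061 while box C/D was -0.15. With no floor, members at least 2-fold lower numbered 11, box C/D members past 2-fold 10, and the median in other protein-coding hosts was 0.096. With a floor at the 75th percentile, members at least 2-fold higher numbered 3, box H/ACA members past 2-fold 3, and all named clusters past 2-fold 478 (of 6485); the member median was 0.22 and the box H/ACA median 0.38. At 1.5-fold, members numbered 29 higher and 16 lower, box C/D 30, box H/ACA 13, Cajal body 2 and all named clusters 2464. The values as reported were 7 higher, 3 lower, medians of 0.02 for members, -0.16 for box C/D and 0.03 for box H/ACA, and 853 named clusters past 2-fold. Fewer or more clusters, or the lower fold, change the totals by construction. The balance of members past 2-fold also changed, to 9 higher and 11 lower with no floor. The causes of that change and of the shifted medians were not tested. Of single members, SNORD69 dropped under 2-fold with both other scalings. No paired analysis was possible because each medium had 1 column. Depth does not apply to arrays, and members near the floor are the least certain.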

Other observations

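In 333 of the 25937 clusters with 1 symbol (1.28%) the deposited signal was exactly the same in both media, in 31 of them above the floor. Of the snoRNA and scaRNA clusters 5 had equal values, 0 of them above the floor.

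The 113 clusters of imprinted box C/D RNAs, which include SNORD109A with 2 clusters, gave a view of low signal. Over their 100 symbols the median difference was 0.07, with quartiles of -0.04 and 0.21. SNORD114-4 (5.74 in control, 4.23 in treated) and SNORD114-16 (4.21 and 5.24), both in the chromosome 14 array, were the only copies of the 4 arrays past 2-fold, in opposite directions.

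Some symbols had clusters of unequal value. SNORD124 had differences of -0.66 and 0.12 in its 2 clusters, both under the floor, and SNORA21 of -0.47 and -0.09, both above it. The gap within SNORD124, 0.79 on the log2 scale, was the widest of the 18 symbols with several clusters.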
